A study of Mus musculus with 41 samples.

Results

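The authors placed 771 of their 5147 RHOX10 peaks, 15% of all, in an intron. By the intron number in their annotation, 566 of these lay in the first intron of a transcript and 205 in a later intron. All 771 list the 3 RHOX10 libraries from which the peaks were merged. The annotation linked 770 of them to a gene with an identifier, 750 genes in all: 18 genes had 2 intron peaks and 1 gene had 3. A peak in the promoter-TSS class (TSS, transcription start site) was also present for 42 of the 750 genes.

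RHOX10 is a homeodomain transcription factor encoded in the X-linked Rhox cluster. Homeodomains contact short A/T-rich DNA, of which TAAT is the textbook core. Introns hold many of the regulatory elements of mammalian genes: the start of the first intron often still belongs to the CpG island of the promoter, while later introns can hold enhancers or the start sites of shorter transcripts. CUT&Tag reads where an antibody tethers a transposase, which also favours open chromatin.

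The peaks came from C57BL/6 germline stem cells, cultured from neonatal testes, in which an shRNA lentivirus had lowered endogenous Rhox10 and a second lentivirus supplied HA-tagged Rhox10. CUT&Tag had 3 libraries each for anti-HA in these cells, anti-HA in knockdown cells with an empty vector, and IgG in the HA-Rhox10 cells. The control libraries were not analysed here, so no background level stands beside a peak score. Gene activity came from 2 other assays. RNA-seq was made from C57BL/6 testis germ cells sorted for an Oct4-eGFP reporter, as 4 libraries under the label wild-type and 4 under the label Rhox10-null, each a pool of 3 animals whose age the labels do not give. iSLAM-seq, which follows RNA made after a factor is switched on, was made from the cultured knockdown cells. They carried a Rhox10-ERT2-mCherry fusion that responds to 4-hydroxytamoxifen, or the empty ERT2-mCherry vector, with 2 libraries per vector at 0, 0.5, 1, 2, 4 and 8 h. The knockdown is thus present in both arms, and no arm shows cells with untouched Rhox10.

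The RNA-seq libraries held 6602089 to 8278887 counts and the iSLAM-seq libraries 9419615 to 12645845. Gm42418 alone accounted for 58% to 59.4% of all counts under the wild-type label, and for 51% to 52.7% under the null label. Rhox10 itself had 3 to 10 counts in wild-type libraries, and 4 to 11 where the label was null, so it does not check the labels, and the libraries are called by their label throughout. In iSLAM-seq Rhox10 stood at 0.202 to 2.42 CPM with the empty vector and at 34 to 46.7 CPM with Rhox10-ERT2, already 35.7 and 38.5 CPM at 0 h. Germ cell markers summed to 243 to 258 CPM (counts scaled to the library total, TMM-adjusted) in wild-type libraries and to 115 to 130 CPM in those labelled null. In the same order, erythroid markers summed to 1.49 to 4.24 and 79.3 to 88.1 CPM, Leydig markers to 34.2 to 36 and 46.3 to 56.1, macrophage and endothelial markers to 45.3 to 49.8 and 61.8 to 69.6, and stromal markers to 449 to 473 and 710 to 752. Sertoli markers summed to 601 to 652 and 661 to 686 CPM. The part of these markers in the RNA-seq differences below was not tested, and in bulk samples fewer cells of a type cannot be told apart from less RNA per cell. In iSLAM-seq the germ cell markers summed to 2370 to 3160 CPM per library, stromal markers to 987 to 2020, Sertoli markers to 264 to 643, macrophage and endothelial markers to 41.2 to 71.1, Leydig markers to 8.04 to 17.1 and erythroid markers to 0.303 to 3.11. The Sertoli marker Amh, the Leydig markers Hsd3b1, Insl3 and Lhcgr and the erythroid marker Hbb-bt were at 0 in all 24 libraries. The 2 empty-vector libraries at 0.5 h differed from each other far more than other pairs, with a chi-square per degree of freedom of 26.6 against at most 4.57.

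The sequences below show what the strongest and the germ-cell-linked intron peaks look like. Each is the central 200 bases of a peak on GRCm38, plus strand, with every match to a searched motif in capitals. The homeodomain motifs searched were the core TAAT and the longer palindrome TAATTA, whose matches hold the core on each strand. Promoter motifs were CCAAT for the factor NFY, CCGGAAG for the ETS family, GCGCATGC for the factor NRF1 and GGGGCGGGG for the SP family. The others were TGACGTCA for CREB-type factors, CACGTG for E-box binding factors, TGACTCA for the AP-1 family, GATAAG for factors of the GATA family, and CCACNAGG as a short core of the CTCF motif. All were searched on both strands. First come peaks in a first intron: Kat6b, the highest-scoring of that class, then Sall4, Ddx4, Dnmt3a and Sall1, which are germ cell or spermatogonial genes, and Nr4a2, an immediate-early gene.
Kat6b (chr14:21500500-21500699): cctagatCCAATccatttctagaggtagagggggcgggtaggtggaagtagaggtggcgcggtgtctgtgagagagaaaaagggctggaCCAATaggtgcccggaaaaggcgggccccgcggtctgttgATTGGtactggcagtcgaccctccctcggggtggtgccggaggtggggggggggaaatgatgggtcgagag
Sall4 (chr2:168766754-168766953): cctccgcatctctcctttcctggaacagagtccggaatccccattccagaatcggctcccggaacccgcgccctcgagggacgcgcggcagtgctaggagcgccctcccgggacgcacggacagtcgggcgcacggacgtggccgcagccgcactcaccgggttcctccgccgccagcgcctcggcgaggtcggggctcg
Ddx4 (chr13:112652029-112652228): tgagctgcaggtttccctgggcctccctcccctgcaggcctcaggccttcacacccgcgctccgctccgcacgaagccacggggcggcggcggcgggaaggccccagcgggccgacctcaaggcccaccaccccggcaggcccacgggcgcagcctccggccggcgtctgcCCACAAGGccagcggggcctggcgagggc
Dnmt3a (chr12:3808382-3808581): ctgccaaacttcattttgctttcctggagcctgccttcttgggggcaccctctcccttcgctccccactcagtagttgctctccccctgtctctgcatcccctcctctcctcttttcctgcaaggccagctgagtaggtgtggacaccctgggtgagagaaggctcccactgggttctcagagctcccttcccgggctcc
Sall1 (chr8:89043738-89043937): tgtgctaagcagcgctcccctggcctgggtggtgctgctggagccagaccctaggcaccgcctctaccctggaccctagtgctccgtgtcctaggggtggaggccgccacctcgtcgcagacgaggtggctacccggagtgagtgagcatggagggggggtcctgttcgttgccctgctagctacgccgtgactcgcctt
Nr4a2 (chr2:57123593-57123792): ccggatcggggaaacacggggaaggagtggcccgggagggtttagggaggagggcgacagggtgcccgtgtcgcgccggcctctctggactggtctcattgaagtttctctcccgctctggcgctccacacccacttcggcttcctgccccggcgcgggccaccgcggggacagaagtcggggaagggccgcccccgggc
Next are the highest-scoring peak in a later intron, linked to 4930467E23Rik, and the highest-scoring intron peak over 3 kb from any GENCODE start, in Arid1b.
4930467E23Rik (chr8:19784805-19785004): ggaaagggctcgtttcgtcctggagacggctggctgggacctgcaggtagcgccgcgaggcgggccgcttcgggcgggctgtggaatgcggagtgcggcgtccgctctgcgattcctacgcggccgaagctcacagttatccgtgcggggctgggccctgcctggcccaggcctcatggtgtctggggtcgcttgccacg
Arid1b (chr17:5189907-5190106): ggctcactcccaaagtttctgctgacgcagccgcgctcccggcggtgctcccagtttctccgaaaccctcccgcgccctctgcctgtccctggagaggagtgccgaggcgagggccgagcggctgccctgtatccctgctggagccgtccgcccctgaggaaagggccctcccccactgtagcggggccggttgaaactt
Last are Rpp40, the highest-scoring intron peak with TAATTA in its central window, and Meis2, the homeobox gene with the largest RNA-seq change among those linked.
Rpp40 (chr13:35906098-35906297): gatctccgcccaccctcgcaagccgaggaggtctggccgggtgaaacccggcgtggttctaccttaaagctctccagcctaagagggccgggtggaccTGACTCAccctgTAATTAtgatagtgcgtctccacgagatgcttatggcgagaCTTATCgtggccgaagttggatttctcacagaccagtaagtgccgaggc
Meis2 (chr2:116066921-116067120): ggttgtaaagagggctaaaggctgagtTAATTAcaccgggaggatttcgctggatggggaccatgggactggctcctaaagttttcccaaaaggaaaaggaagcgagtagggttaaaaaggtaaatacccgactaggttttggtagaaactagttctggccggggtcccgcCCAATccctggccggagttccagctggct

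None of the first 8 windows held TAAT, and 6 of them held no searched motif. The Kat6b window held 3 CCAAT matches and the Ddx4 window 1 CTCF core match. GC content ran from 60% in Dnmt3a to 77.5% in Ddx4 among these 8, and the number of CpG dinucleotides from 2 in Dnmt3a to 28 in Sall4. The Rpp40 window had 57.5% GC and the Meis2 window 51.5%. The central 50 bases of each of the 10 windows occurred once in the reference chromosomes. The Sall4 and Rpp40 windows reach into an exon of the same gene by 42 and 94 bases.

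First-intron peaks lay close to the start of their gene. Their centre was a median of 160 bases into the intron, and the authors' distance to the TSS had a median size of 399 bases with quartiles of 215.25 and 840.25. Of the 566, 501 (88.5%) were within 3 kb. For later-intron peaks the median distance was 13788 bases, and 35 of 205 (17.1%) were within 3 kb. The promoter-TSS class, whose stated distances run from -996 to 893 bases, had a median of 84. The largest distance of an intron peak was 482197 bases, in intron 4 of Sdk1, a cell adhesion gene.

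A different picture of the later introns came from the GENCODE M21 annotation, which lists more transcripts than the table's one start per peak. By its nearest start of any transcript, the median distance was 215.5 bases for first-intron and 1504 for later-intron peaks. Within 500 bases of such a start were 434 first-intron peaks (76.7%) and 79 later-intron peaks (38.5%), against 98.1% of promoter-TSS and 33.4% of intergenic peaks. Of the 235 intron peaks over 3 kb away by the authors' distance, 79 were within 500 bases of a GENCODE start. For 57 of those 79 it was the start of a transcript of the gene that holds the intron, 28 of them protein coding. For 21 it was the start of another gene, of which 12 were long noncoding or antisense RNAs and 2 pseudogenes, and for 1 it was the linked gene. Peaks of this kind were linked to Pcgf5, a Polycomb subunit (30556 bases stated, 125 to a GENCODE start), Chd9, a chromatin remodeller (-23876 and 42), and Grk2, through a peak in intron 12 of the histone demethylase gene Kdm2a (-27762 and 17). Of the same 235 peaks, 119 were also over 3 kb from any GENCODE start.

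**Figure D1:**
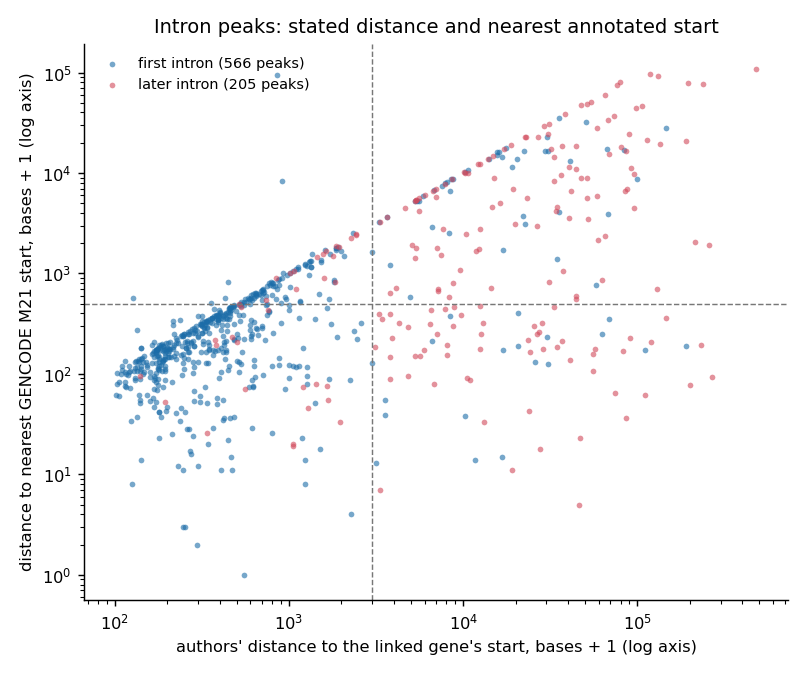
Each point is an intron peak, blue in first introns (566) and red in later introns (205). The x axis gives the size of the authors' distance to the TSS and the y axis the distance to the nearest GENCODE M21 start, both in bases plus 1 on log axes. The dashed lines mark 3 kb and 500 bases, and the 79 peaks at lower right are far from the stated TSS but near a GENCODE start.

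Sequence composition followed the same division. Median GC content was 63.9% in first-intron and 57.2% in later-intron peaks, with 64.4% in promoter-TSS peaks. A peak was called CpG-rich when GC was at least 50% and observed CpG at least 0.6 of that expected from its base content. That held for 76.5% of first-intron, 30.7% of later-intron, 90.7% of promoter-TSS and 47.3% of intergenic peaks. Among the 79 far peaks near a GENCODE start, 57% were CpG-rich and the median score was 94.9. Among the 119 with no start within 3 kb, 10.1% were CpG-rich and the median score was 44.8. Repeats covered over 50% of the peak in 12.2% of later-intron and 1.41% of first-intron peaks.

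The authors' peak score, whose scale is not stated, had a median of 80.9 over all 771 intron peaks and 128 over all 5147 peaks. Its median was 92.3 for first-intron peaks and 53.5 for later-intron peaks, against 166 for promoter-TSS and 62.9 for intergenic peaks. By intron number the medians were 92.3 in intron 1, 57.8 in intron 2 (75 peaks), 57.1 in introns 3 to 5 (61 peaks) and 49.6 beyond intron 5 (69 peaks). The quartiles of first-intron scores, 54.3 and 159, and of later-intron scores, 35 and 98.6, overlapped widely. These are descriptions of 1 merged peak list, with no replicate error for a peak.

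**Figure D2:**
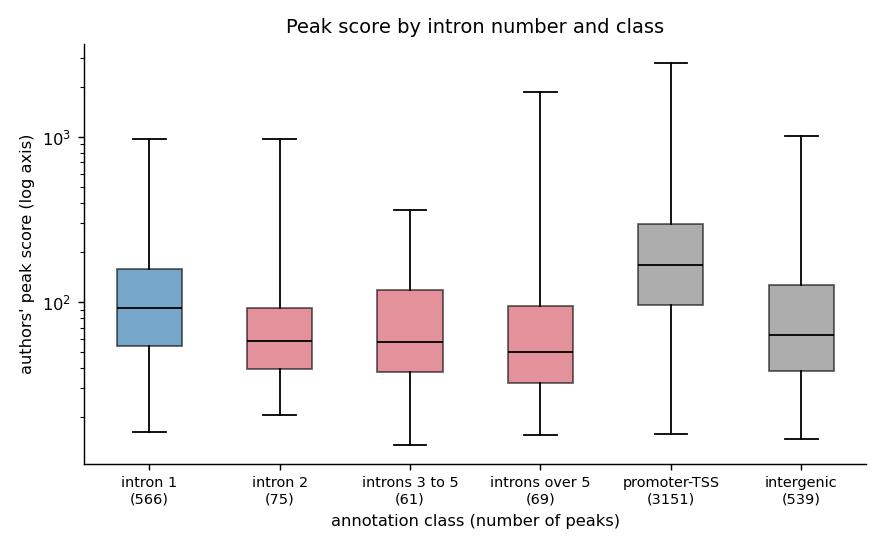
Box plots of the authors' peak score on a log axis for intron peaks by intron number and for promoter-TSS and intergenic peaks. Boxes give the quartiles, lines the medians and whiskers the lowest and highest peak, and the number of peaks stands under each box. Intron 1 has a median of 92.3, and the later introns lie between 49.6 and 57.8.

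The homeodomain core TAAT was in the central 200 bases of 15.5% of first-intron and 30.2% of later-intron peaks. The shares were 17.9% for promoter-TSS peaks, 26.3% for intergenic peaks and 47% for RefSeq promoters, read as the central 200 bases of each. TAATTA was in 0.53% of first-intron and 1.46% of later-intron peaks, 6 peaks in all, against 3.74% of RefSeq promoters. Those 6 were linked to Rpp40, Meis2, Mab21l1, Pantr1, Zfp704 and Ptpn18. RefSeq promoters were not matched to the peaks in GC content, and the peak classes differ in it, while both homeodomain motifs hold no G or C. These shares are thus no measure of a lack or excess of the core in RHOX10 peaks. In the same central 200 bases, the promoter motifs below were less frequent in both intron classes than in promoter-TSS peaks. CCAAT was in 14.7% of first-intron, 22% of later-intron and 31.4% of promoter-TSS peaks, with 29.3% of RefSeq promoters. The ETS motif was in 4.06%, 2.93% and 13.7% of the same classes (6.3% of RefSeq promoters), and the SP motif in 10.2%, 9.76% and 22% (9.67%). The CTCF core was in 3.53%, 6.34% and 3.46% (3.41%). In the 119 intron peaks over 3 kb from any start, the shares were 30.3% for CCAAT, 3.36% for ETS and 8.4% for SP. Over the whole peak, CCAAT was in 45.4% of first-intron, 53.2% of later-intron and 54.6% of promoter-TSS peaks.

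The 5 highest-scoring first-intron peaks were linked to Kat6b, a histone acetyltransferase (score 977.47), Fancc, a Fanconi anaemia protein (902), Ensa, an inhibitor of the phosphatase PP2A (782.07), Cic, a transcriptional repressor downstream of receptor tyrosine kinases (777.63), and Ccdc9 (748.17). All 5 were within 814 bases of the stated TSS. The highest later-intron score, 1873.4, was also the highest of all intron peaks. It belonged to a peak that the authors placed in intron 6 of a Gm21119 transcript on chromosome 8. No RefSeq intron of this transcript was matched at the position. The peak was linked to 4930467E23Rik over 55328 bases, with the start of the pseudogene Gm10060 158 bases away. 4930467E23Rik had a mean of 0.195 CPM in wild-type libraries and was not tested in either assay. Other high-scoring peaks in later introns were linked to Slc27a1, a fatty acid transporter (642.23), Phf19, a Polycomb cofactor (382.3), and Tbc1d14, an autophagy regulator (380.73).

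For most first-intron peaks the gene that holds the intron was also the linked gene, 551 of 564 with a known host. For later introns this held for 134 of 202. The RNA values below belong to the linked gene, which in later introns is often not the gene around the peak. Ier2, an immediate-early gene, was linked to 2 peaks that both lie in introns of Cacna1a, a calcium channel gene, at 62286 and 95580 bases. Rps4l, a ribosomal protein paralog, was linked to a peak in intron 5 of Tmtc1. Bicc1, an RNA-binding protein gene, was the gene with 3 intron peaks, in introns 1, 1 and 13, with scores of 131.07, 60.8 and 37.4. Pairs of peaks were linked to Mnt and Mxi1, both partners of MAX, to Rai1 and Zbtb2, both transcriptional regulators, and to Rbms1, an RNA-binding protein gene. Mnt had the strongest pair, 634.1 in intron 1 and 360.4 in intron 4.

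The share of linked genes that changed was near the background in RNA-seq and above it in iSLAM-seq; linked genes had higher counts than all genes in both. In RNA-seq, 245 of 602 tested linked genes (40.7%) passed edgeR's quasi-likelihood test at an adjusted p under 0.05, against a background of 37.5% of all 13538 genes tested. Of these, 155 were higher in libraries labelled null and 90 lower, 25.7% and 15% of those tested, where the background was 18.6% higher and 18.9% lower. With plain library totals as the scale, the split became 367 higher and 23 lower, since that scaling moved the median log2 value over all genes from 0.00306 to 0.35. The median over linked genes was 0.0458 and 0.393 on the same scales. With library totals, 7229 of all genes were higher and 629 lower. These totals include Gm42418, at 58% to 59.4% of counts under the wild-type label and 51% to 52.7% under the null label. With DESeq2, 137 linked genes were called (22.8%), 86 higher and 51 lower, against 22% of all genes. The median level of tested linked genes was 9.72 CPM and that of all tested genes 7.15 CPM, while per kilobase of gene length the medians were 1.72 and 1.81.

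In iSLAM-seq the mean difference over 0.5 to 8 h (Rhox10-ERT2 minus empty vector) was called for 335 of 694 linked genes (48.3%), against 37.1% of all 20642 genes tested. Of these, 178 were higher (background 18.7%) and 157 lower (background 18.4%). At 8 h alone, 158 (22.8%) were called, against a background of 16.8%, with 72 higher (background 8.06%) and 86 lower (background 8.79%). At 0 h, before the inducer, 106 (15.3%) were already called, against 10.9%. Without 1 of the empty-vector libraries at 0.5 h, which share in the estimate of spread, the counts were 163 or 166 at 0 h and 238 or 241 at 8 h. Leaving out 1 of the 4 libraries at 0 h gave 51 to 65 at 0 h, and leaving out 1 of the 4 at 8 h gave 92 to 98 at 8 h. In this fit the lone library left in a group is assumed to vary like the other groups. The share of all genes called without a library is not given here, so these counts have no background and describe the fits, not the linked genes.

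The iSLAM-seq level of linked genes was higher than that of all genes tested, with medians of 27.7 and 9.48 CPM in these 3′ end counts, and the share of genes called was larger where counts were higher. Among genes with a mean over 27.6 CPM, the highest of 3 classes of equal size,, 210 of 348 linked genes (60.3%) and 60.7% of all genes were called in the averaged difference. In the middle class the shares were 41.7% and 38.4%, and in the lowest (under 2.72 CPM) 19.5% (17 of 87 genes) and 12.1%. For RNA-seq the shares of linked and all genes were 53.8% and 50.6% in the highest class, 33.5% and 36.6% in the middle and 28.4% and 25.2% in the lowest. Of genes linked to first- and later-intron peaks, 196 of 491 (39.9%) and 53 of 118 (44.9%) were called in RNA-seq, and 264 of 536 (49.3%) and 74 of 166 (44.6%) in the averaged iSLAM-seq difference. The difference between the classes was not tested.

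**Figure D3:**
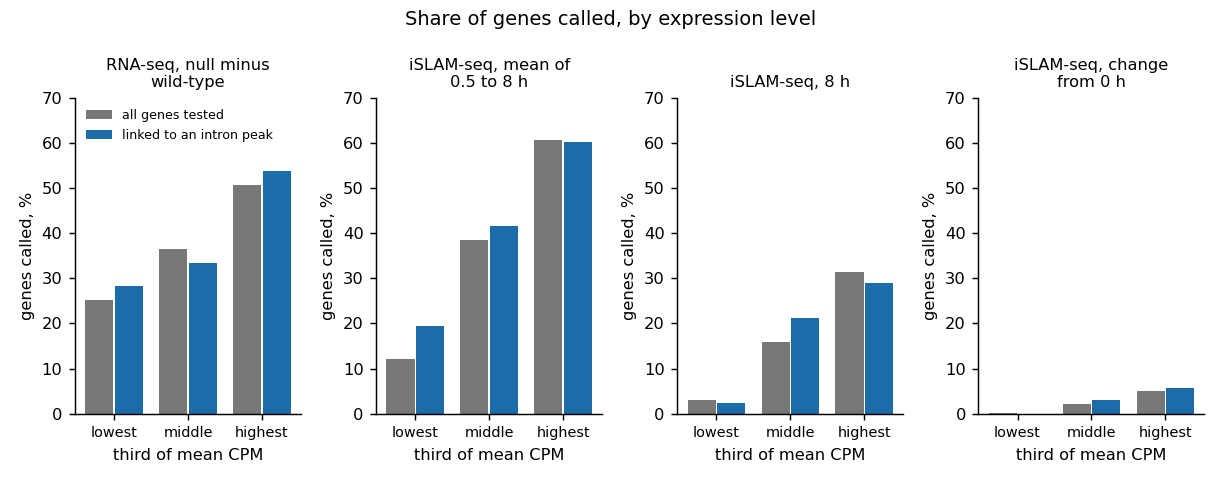
Bars give the percentage of genes called at an adjusted p under 0.05 among all genes tested (grey) and among genes linked to an intron peak (blue), by class of mean CPM (3 classes with equal numbers of all genes). The 4 panels are RNA-seq, the averaged iSLAM-seq difference, the 8 h difference and the change from 0 h. In the highest class of the averaged difference the bars reach 60.7% and 60.3%.

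Sall4 and Ddx4, the 2 germ cell markers with an intron peak, were lower both in libraries labelled null and with Rhox10-ERT2, while the linked spermatogonial differentiation genes Dnmt3a and Sall1 were not. Only Sall4, a zinc-finger factor required for spermatogonial maintenance, was linked among the 32 genes of the spermatogonial stem cell list. Its RNA-seq values were 29.2, 29.5, 28.3 and 27.9 CPM in wild-type libraries and 16.5, 17.1, 17.8 and 16.8 CPM in those labelled null. The groups did not overlap, and the log2 fold change was -0.75 ± 0.0746 (SE, adjusted p 4.94e-11, edgeR). In iSLAM-seq, Sall4 had 181 and 166 CPM with the empty vector and 144 and 140 CPM with Rhox10-ERT2 at 0 h. At 8 h the values were 205 and 206 against 139 and 145 CPM. Its difference averaged over the induced times was -0.44 ± 0.0333 (SE, adjusted p 3.11e-10, edgeR), and its change from 0 h was not called (adjusted p 0.769).

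Ddx4, the germ-cell RNA helicase also known as Vasa, was lower in both assays too. Its wild-type libraries had 39.9, 37.7, 39.2 and 38.3 CPM and those labelled null 21.2, 20.7, 19.6 and 21.1 CPM, a log2 fold change of -0.91 ± 0.0662 (SE, adjusted p 6.77e-15, edgeR). In iSLAM-seq it had 133 and 137 CPM against 87.6 and 86.8 CPM at 0 h, and its averaged log2 difference was -0.49 ± 0.0406 (SE, adjusted p 1.32e-09, edgeR). The groups were separated before the inducer as they were after it. Sall4 and Ddx4 are 2 of the 10 germ cell markers, of which all 9 tested were lower in libraries labelled null. Of the differentiation list (21 genes), Dnmt3a and Sall1 were linked. Dnmt3a, a de novo DNA methyltransferase, was higher in libraries labelled null (78.3 ± 4.08 and 94 ± 1.35 CPM, SD, n = 4 each, edgeR adjusted p 4.26e-05). Sall1 had 1.98 ± 0.399 and 2.59 ± 0.988 CPM and was not called (adjusted p 0.289, edgeR), but it was higher in the averaged iSLAM-seq difference (log2 0.24, edgeR adjusted p 0.000532). Over the whole stem cell list, 17 of 23 tested genes were lower and 1 higher in RNA-seq, with a median log2 fold change of -0.74. In the averaged iSLAM-seq difference 22 of 31 were lower and 3 higher, with a median of -0.34. Of the differentiation list, 8 of 18 were lower and 2 higher in RNA-seq, and 4 of 20 lower and 10 higher in iSLAM-seq.

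Of the 109 chromatin regulators listed, 14 were linked. In RNA-seq 12 of the 14 were called, 8 higher and 4 lower in libraries labelled null; with library totals as the scale, 9 were called, 8 higher and 1 lower. The whole list had 64 of 108 called, 42 higher and 22 lower. Chd9, a chromodomain remodeller, rose from 18 ± 2.07 to 27.9 ± 1.13 CPM (SD, n = 4 each), a log2 fold change of 0.63 ± 0.0796 (SE, adjusted p 2.12e-08, edgeR). The remodeller genes Chd3 and Chd2 rose by 0.38 and 0.37 on the log2 scale, and the acetyltransferase gene Kat6b, with the highest-scoring first-intron peak, by 0.39 ± 0.067 (SE, adjusted p 1.03e-05, edgeR). Kat6b had 24.7, 28.2, 26.8 and 27.8 CPM in wild-type libraries and 36.6, 36.2, 32.7 and 35.4 CPM in those labelled null. Arid1b, a BAF complex subunit, Hdac7, a histone deacetylase, and Smarca1, a nucleosome remodeller, rose by 0.26, 0.52 and 0.39.

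The 4 lower chromatin genes were 3 Polycomb genes and Kat7, a histone acetyltransferase (-0.27), of which Pcgf5 alone was called with library totals as the scale (-0.35). Pcgf5, a subunit of a variant Polycomb complex, had 14.4, 13, 15.8 and 16.3 CPM in wild-type libraries and 9.28, 9.14, 9.13 and 9.28 CPM in those labelled null. Its log2 fold change was -0.69 ± 0.106 (SE, adjusted p 1.13e-06, edgeR), and the groups did not overlap. Cbx2 and Cbx7, which encode the chromodomain subunits of canonical Polycomb complexes, had log2 fold changes of -0.54 and -0.53, and their groups overlapped; with library totals both stood at -0.19 and were not called. In the averaged iSLAM-seq difference 9 of the 14 were called, 2 higher and 7 lower, and over the list 14 were higher and 49 lower of 109. Chd3 and Hdac7, higher in libraries labelled null, were lower with Rhox10-ERT2 (-0.45 and -0.52), while Kat7 was lower in both (-0.38). The 2 higher ones, Chd9 (0.39) and Kat6b (0.18), were higher in both assays. At 0 h Chd3 already had 175 and 172 CPM with the empty vector against 145 and 134 CPM with Rhox10-ERT2. Hdac7 had 272 and 260 against 192 and 187 CPM, and Kat7 272 and 282 against 235 and 206 CPM. Chd9 had 21.3 and 24.5 against 30.7 and 33.9 CPM, and Kat6b 35.9 and 36.5 against 43.1 and 46 CPM.

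Of 56 homeobox genes, 4 had an intron peak. Meis2, a TALE-class homeobox gene, had 1.8, 1.23, 1.19 and 1.49 CPM in wild-type libraries and 5.57, 3.18, 4.09 and 4.44 CPM in those labelled null, a log2 fold change of 1.59 ± 0.245 (SE, adjusted p 1.41e-06, edgeR). In iSLAM-seq it had 4.7 and 4.09 CPM with the empty vector and 14.2 and 16.9 CPM with Rhox10-ERT2 at 0 h, and its averaged difference was 0.95 ± 0.123 (SE, adjusted p 1.44e-06, edgeR). Its level was thus higher in libraries labelled null and also higher with added Rhox10. Six4 rose by 0.64 (adjusted p 0.04, edgeR) and Zfhx3 fell by 0.22 (adjusted p 0.0169, edgeR) in RNA-seq, and Zfhx3 was 0.13 with library totals as the scale. Zhx2 was not called in RNA-seq (adjusted p 0.508, edgeR). Over the list, 16 of 37 tested genes were higher and 5 lower in RNA-seq.

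Of the signalling list (52 genes of the GDNF and FGF pathways), Rps6ka1, the kinase RSK1, and Rptor, a subunit of mTORC1, were linked. Rps6ka1 had 8.67 ± 1.16 CPM in wild-type libraries and 4.63 ± 0.317 CPM in those labelled null (SD, n = 4 each), a log2 fold change of -0.90 (adjusted p 2.72e-06, edgeR). Rptor was at 28.9 ± 1.31 and 29.7 ± 2.24 CPM and was not called (adjusted p 0.685, edgeR). Over the list, 11 were higher and 8 lower of 52 in RNA-seq, and 11 higher and 13 lower in iSLAM-seq. Bub1, a mitotic checkpoint kinase, was the linked gene of 44 cell cycle genes and had a log2 fold change of -0.50 ± 0.088 (SE, adjusted p 1.27e-05, edgeR), from 22.7 ± 2.51 to 15.9 ± 1.38 CPM. Of that list 16 were lower and 4 higher in RNA-seq, and 20 lower and 6 higher in iSLAM-seq. With library totals, Bub1 stood at -0.16 and was not called. None of 33 interferon response genes was linked to an intron peak. In RNA-seq 2 of the 12 tested were higher, and in iSLAM-seq 26 were higher and 1 lower in the averaged difference. At 8 h alone 30 of the 33 were higher and 0 lower.

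Among linked genes that were called, had a mean of at least 5 CPM and had no overlap between genotypes, the largest RNA-seq rises were in Ank1, P3h3, Dleu2, Ncam1, Eml1 and Grb10. Ank1 encodes ankyrin-1 of the red cell membrane skeleton and had 2.86, 4.45, 2.54 and 3.93 CPM in wild-type libraries and 9.17, 8.34, 10.6 and 8.34 CPM in those labelled null. Its log2 fold change was 1.39 ± 0.162 (SE, adjusted p 3.2e-09, edgeR). Erythroid markers stood higher in the same 4 libraries, as given above. P3h3, a collagen prolyl hydroxylase, rose by 1.00, Dleu2, a noncoding RNA that hosts a microRNA cluster, by 0.83, the adhesion molecule Ncam1 by 0.80 and the microtubule protein Eml1 by 0.75. Grb10, an imprinted adaptor of insulin signalling, rose from 25.9 ± 1.97 to 43.2 ± 4.14 CPM (log2 0.73, adjusted p 2.72e-11, edgeR). Markers of somatic cells with an intron peak were Col1a1, the type I collagen gene (136 ± 4.97 and 199 ± 7.45 CPM, log2 0.54, adjusted p 6.34e-13, edgeR), and the endothelial gene Pecam1 (log2 0.39, adjusted p 0.0292, edgeR). All 8 stromal markers, 6 of the 10 macrophage and endothelial markers, all 6 tested erythroid and 4 of 5 tested Leydig markers were higher in libraries labelled null. Of 10 tested Sertoli markers 2 were higher and 1 lower, and no erythroid, Sertoli or Leydig marker had an intron peak.

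Under the same conditions, the largest falls were in Rps4l, Spint1, Ddx4, Rps6ka1, Wwc1 and Ndufb8. Rps4l had 16.7, 20.2, 20.7 and 17.8 CPM in wild-type libraries and 5.68, 7.68, 6.37 and 6.59 CPM in those labelled null, a log2 fold change of -1.52 ± 0.113 (SE, adjusted p 1.04e-14, edgeR). As a close copy of another ribosomal protein gene, its counts may be split between copies. Spint1, a membrane inhibitor of serine proteases, fell from 8.17 ± 0.834 to 3.84 ± 0.425 CPM (log2 -1.09, adjusted p 2.29e-07, edgeR). Wwc1, the Hippo regulator KIBRA, fell by 0.85 and Ndufb8, a subunit of respiratory complex I, by 0.79.

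**Figure D4:**
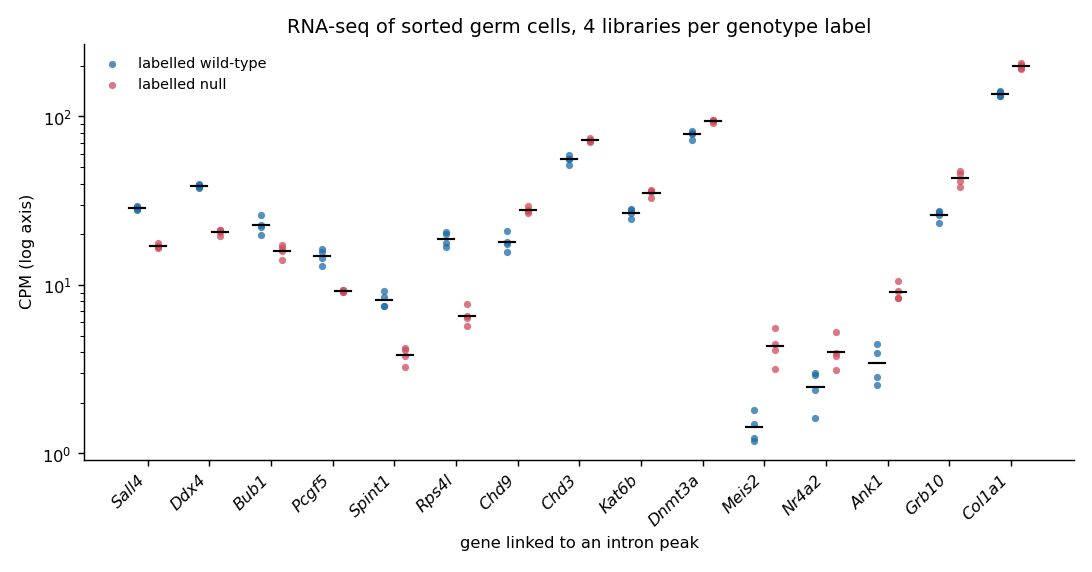
RNA-seq CPM on a log axis for 15 genes linked to an intron peak, with 1 point per library (4 labelled wild-type in blue, 4 labelled null in red) and the mean as a black line. Sall4 lies between 27.9 and 29.5 CPM in wild-type libraries and between 16.5 and 17.8 in those labelled null, and Meis2 between 1.19 and 1.8 and between 3.18 and 5.57.

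In the averaged iSLAM-seq difference, the rises of smallest p with 1 sign at all 5 induced times were Cdh6, Flrt2, Basp1, Gpm6b, Ptgr1 and Rps27l. Flrt2, a membrane protein of FGF and adhesion signalling, had empty-vector libraries between 41.9 and 53.2 CPM (median 45.1) after 0 h. Its Rhox10-ERT2 libraries lay between 84.3 and 109 CPM (median 99), with no overlap, and the log2 difference was 1.08 ± 0.0482 (SE, adjusted p 3.06e-14, edgeR). At 0 h it already stood at 53.9 and 51.3 against 86.9 and 96.6 CPM. Cdh6, a type II cadherin, had the largest difference, 2.54 ± 0.107 on the log2 scale (SE, adjusted p 1.1e-14, edgeR), with libraries between 0.908 and 10.7 CPM with the empty vector and between 3.46 and 69.4 CPM with Rhox10-ERT2. Gpm6b, a neuronal membrane proteolipid, had a log2 difference of 1.42, Basp1, a signalling protein of the membrane, 0.83, Ptgr1, a prostaglandin reductase, 0.77, and Rps27l, a p53-induced ribosomal protein paralog, 0.48. These 4 were also apart at 0 h, before the inducer, and so was Cdh6 (log2 0.99, adjusted p 0.0218, edgeR). Gpm6b then had 13 and 12.4 CPM with the empty vector against 38.1 and 37.9 CPM with Rhox10-ERT2. Basp1 had 182 and 168 against 318 and 328 CPM. Ptgr1 had 49.7 and 58.6 against 75.6 and 73 CPM, and Rps27l 213 and 202 against 292 and 288 CPM. The falls were Elavl2, Med1, Sall4, Hlf, Fbxo3 and Ddx4. Hlf, a PAR bZIP factor, had the largest fall of the 6: 50.9 CPM at the median of empty-vector libraries (40.8 to 60) and 26.3 CPM with Rhox10-ERT2 (20.3 to 33), a log2 difference of -0.94 ± 0.071 (SE, adjusted p 3.11e-10, edgeR). Fbxo3, an F-box protein, stood at -0.64 and Med1, a Mediator subunit, at -0.43. At 0 h Hlf already had 48.5 and 40.7 CPM with the empty vector against 25.5 and 17.9 CPM with Rhox10-ERT2. Fbxo3 had 63.3 and 57.9 against 36.7 and 39.9 CPM, and Med1 403 and 400 against 302 and 333 CPM.

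The next comparison asks whether the difference between the arms changed from its value at 0 h. It did so for 28 of 694 linked genes (4.03%), against a background of 2.39% of all genes. By 8 h minus 0 h, 6 of the 28 rose (background 0.746%) and 22 fell (background 1.65%). This sign does not describe earlier times. The largest difference from 0 h was at 8 h for 20 of the 28, at 4 h for 4, at 2 h for 3 and at 1 h for 1. Rhoq, counted as a fall, had 79 and 100 CPM with the empty vector and 120 and 116 CPM with Rhox10-ERT2 at 0 h. At 2 h these were 85.2 and 78 against 147 and 155 CPM. Myo10, also counted as a fall, had 91.7 and 84.9 against 88.7 and 93.4 CPM at 0 h. At 4 h it had 103 and 105 against 158 and 160 CPM. Of the 28, 16 differed at 8 h but not at 0 h, 8 differed at 0 h but not at 8 h, 2 at both and 2 at neither. Without the 0.5 h time point 68 linked genes were called, the 28 among them. Without 1 empty-vector library at 0.5 h the count was 191 or 74, without 1 at 8 h it was 18 or 16, and without the second Rhox10-ERT2 library at 8 h it was 16. The share of all genes called under these other settings is not given here, so their counts have no background and describe the fits, not the linked genes. In the fit with all libraries, genes of first-intron peaks had 21 calls of 536 and those of later-intron peaks 7 of 166. Genes of peaks over 3 kb from any GENCODE start had 7 of 101.

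In some genes a difference present at 0 h was lost by 8 h. Nr4a2, an orphan nuclear receptor of the immediate-early class, had 121 and 131 CPM with the empty vector and 302 and 311 CPM with Rhox10-ERT2 at 0 h. At 8 h the values were 65.5 and 69.3 against 65.3 and 67.1 CPM. Its log2 difference moved by -1.31 (adjusted p 8.45e-09, edgeR), with both arms lower at 8 h than at 0 h. Mbnl2, a splicing regulator, had 128 and 123 against 214 and 219 CPM at 0 h and 181 and 178 against 196 and 183 CPM at 8 h (adjusted p 0.001, edgeR). Fstl1, a secreted follistatin-like protein, moved by -0.48 (adjusted p 0.00141, edgeR). Elavl2, an RNA-binding protein gene of the Hu family, moved the other way, from 338 and 353 against 224 and 223 CPM at 0 h to 327 and 323 against 324 and 326 CPM at 8 h (adjusted p 0.000174, edgeR). Ier2, the other linked immediate-early gene, moved by -0.53 (adjusted p 0.0554, edgeR) and was not called. Of the 28 tested genes of that list, 21 fell relative to 0 h and none rose. In RNA-seq, 17 of 27 were higher in libraries labelled null and 1 lower, Nr4a2 among the higher at log2 0.72 (adjusted p 0.00946, edgeR).

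In others the arms were alike at 0 h and parted later. Fam107b had 24.9 and 25.1 CPM with the empty vector and 28.3 and 23.3 CPM with Rhox10-ERT2 at 0 h. At 8 h it had 81.9 and 73.3 against 26.1 and 22.6 CPM, a move of -1.71 on the log2 scale (adjusted p 0.000168, edgeR). The empty-vector arm was higher at each later time from 1 h, while the Rhox10-ERT2 arm reached 50.2 and 52.9 CPM at 4 h and was back near its starting level at 8 h. Bach2, a BTB-bZIP repressor, went from 43.8 and 42.3 against 34.3 and 41.9 CPM at 0 h to 64.9 and 66.2 against 27.3 and 34.5 CPM at 8 h (-0.90, adjusted p 0.000888, edgeR). Its course between was uneven, with 51 and 46.2 against 33.1 and 31 CPM at 2 h and 44.7 and 42.3 against 47.1 and 51.6 CPM at 4 h. Plaur, the urokinase receptor gene, went from 11.1 and 10 against 12.5 and 11.4 CPM at 0 h to 56.3 and 63.6 against 29.8 and 28.4 CPM at 8 h (-1.22, adjusted p 0.00203, edgeR). Adar, the interferon-inducible RNA-editing enzyme, had 20.7 and 16 against 16.9 and 16.9 CPM at 0 h and 18 and 14.9 against 42.3 and 42.9 CPM at 8 h, a move of 1.49 (adjusted p 0.00012, edgeR). Of the 33 listed interferon response genes, none of them linked, 26 were called as a rise from 0 h too.

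Cdh6 moved by 0.94 from 0 to 8 h (adjusted p 0.00174, edgeR). At 0 h it already had 2.4 and 2.49 CPM with the empty vector against 5.09 and 4.65 CPM with Rhox10-ERT2. It was highest with Rhox10-ERT2 at 2 h, at 63.5 and 69.4 CPM, against 6.85 and 6.1 CPM with the empty vector. By 8 h it had come down to 34.2 and 34.1 CPM with Rhox10-ERT2, against 7.15 and 10.7 CPM. It was too low to be tested in RNA-seq. The other called genes included Itgb3, an integrin subunit (0.74), among the rises. Has2, a hyaluronan synthase gene, was called while its log2 difference at 8 h was only 0.06 above that at 0 h. Its largest difference from 0 h was at 2 h, with 11.4 and 12.8 CPM with the empty vector against 51.3 and 47.4 CPM with Rhox10-ERT2. Among the falls were Tcf7l2, a Wnt pathway factor (-1.09), Flt1, a VEGF receptor (-0.52), the nuclear receptor Rora (-0.54), Med1 (-0.39), Dleu2 (-0.74), Chd2 (-0.38) and Zhx2 (-1.75).

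**Figure D5:**
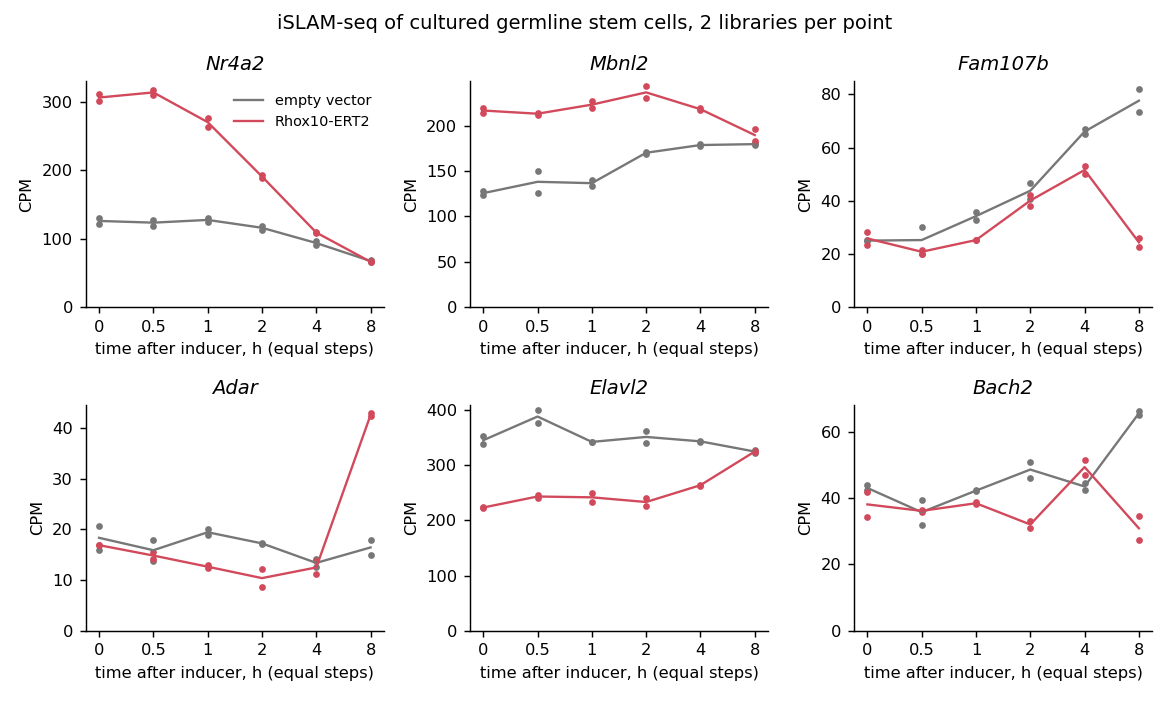
iSLAM-seq CPM against time after the inducer (h, equal steps) for 6 linked genes, with points for the 2 libraries and lines for their means, grey for the empty vector and red for Rhox10-ERT2. Nr4a2 starts at 302 and 311 CPM with Rhox10-ERT2 and ends at 65.3 and 67.1, and Adar ends at 42.3 and 42.9 against 18 and 14.9 with the empty vector.

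Between the assays, 598 linked genes were tested in both and 128 were called in both. Over all genes, 12562 were tested in both and 2406 called in both. The signs were opposite for 37 of these (28.9%) and equal for 91. Over all genes, 641 of 2406 (26.6%) had opposite signs. Of the 37 linked genes, 31 were higher in libraries labelled null and lower with Rhox10-ERT2, and 6 the reverse; over all genes the split was 391 and 250. The 6 of smallest RNA-seq p were Ank1, Dleu2, Gramd1b, Chd3, Chd2 and Dpysl5, all higher in libraries labelled null. Chd3 had 55.7 ± 2.99 and 72.4 ± 1.75 CPM (SD, n = 4 each) and an averaged iSLAM-seq difference of -0.45 (adjusted p 7.68e-09, edgeR). For Ank1 the values were 1.39 in RNA-seq and -0.59 in iSLAM-seq, for Gramd1b, a sterol transporter, 0.48 and -0.20, and for Dpysl5, a neuronal cytoskeletal regulator, 0.57 and -0.30. The groups of Ank1 at 0 h already differed by -0.93 on the log2 scale.

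Of 60 imprinted genes, a list drawn up after the data were seen, 22 had a peak of any class and 5 an intron peak, Peg10, Impact, Grb10, H13 and Gnas. Grb10, Impact, H13 and Gnas were higher in libraries labelled null (log2 0.73, 0.64, 0.28 and 0.19), and Peg10, a retrotransposon-derived gene, was not called (-0.09, adjusted p 0.246, edgeR). In the averaged iSLAM-seq difference Peg10, Impact and H13 were higher (log2 1.00, 0.47 and 0.32), Gnas, the stimulatory G protein gene, was lower (-0.75), and Grb10 was not called (0.11, adjusted p 0.158, edgeR). At 0 h Peg10 already had 23.2 and 22.7 CPM with the empty vector against 32.8 and 48.9 CPM with Rhox10-ERT2. Impact had 27.4 and 37 against 53.4 and 51.2 CPM. H13 had 121 and 122 against 160 and 171 CPM, and Gnas 16.9 and 17.1 against 10.3 and 11.1 CPM.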

How the data were processed

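Of 41 samples, the 3 RHOX10 CUT&Tag libraries entered through 1 merged peak table, and 8 RNA-seq and 24 iSLAM-seq libraries through gene count tables. The deposited peak score comes from HOMER after Bowtie2 2.2.5 and SAMtools on mm10, per the submitters' processing notes; its scale and the use of the control libraries in calling are not given in the sources used here. Deposited counts are raw reads per gene: STAR 2.5.2b, Subread featureCounts and DESeq2 on GRCm38 are named for RNA-seq and limma 3.42.2 on mm10 for iSLAM-seq, per the submitters' processing notes. Whether iSLAM-seq counts hold all reads or only converted ones, and the strand setting, are not given there; overlapping genes are uncertain. Columns of per-sample values left unused numbered 0.

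Counts were tested with edgeR 4.0.16 in R 4.3.3 (TMM, filterByExpr, quasi-likelihood F-test, Benjamini-Hochberg over all genes, threshold 0.05), separately for each assay with all its groups in 1 fit; the change from 0 h is a 5-degree-of-freedom test. DESeq2 1.42.0 was an alternative. The procedure was tested on simulated data. CPM use TMM-scaled totals. Peak classes were described without a test. GENCODE M21 gave the nearest starts; GC, CpG and repeat content came from the GRCm38 sequence, and promoters from RefSeq on GRCm38. Labels call CUT&Tag and iSLAM-seq libraries biological replicates.

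Members and gene lists (spermatogonial stem and differentiation, homeobox, chromatin, GDNF and FGF signalling, cell cycle, interferon, immediate-early, and markers of germ, erythroid, Sertoli, Leydig, macrophage-endothelial and stromal cells) were chosen with earlier results of these data known. Named genes were the 5 highest peaks of each class; up to 6 rises and 6 falls per assay (in RNA-seq the largest calls of at least 5 CPM without overlap, in iSLAM-seq the smallest p with 1 sign at all times); 8 changes of smallest p; 6 genes of opposite sign; 6 genes with at least 2 peaks; and listed genes, up to 4 for most lists. The imprinted list, the fit without 0.5 h, the classes by CPM, the Ddx4, Nr4a2, Arid1b, Rpp40 and Meis2 sequences, and other genes outside this rule (Arid1b, Smarca1, Hdac7, Kat7, Rptor, Plaur, Itgb3, Has2, Rhoq, Myo10, Tcf7l2, Flt1, Rora, Sdk1, Grk2 and the imprinted genes) were chosen after values were seen. 1 gene that the rule names is not reported here.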

Additional observations from a re-analysis of the deposited data

Results flagged for a closer look

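In 9 of 120 groups of 4 RNA-seq libraries of the named genes, 1 library stood apart by Dixon's criterion; chance gives about 1 in 20. Among wild-type libraries these were the highest for Fancc (10.7 CPM), Flrt2 (9.83) and Ptgr1 (20.8) and the lowest for Ensa (18.8) and Gpm6b (17.5). Among libraries labelled null they were the highest for Phf19 (2.51) and Chd2 (46.1) and the lowest for Cic (72.3) and Tbc1d14 (19.5).

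For 12 named genes the iSLAM-seq difference between the arms changed from its value at 0 h, by edgeR's quasi-likelihood test. The adjusted p was 8.45e-09 for Nr4a2, 0.00012 for Adar, 0.000168 for Fam107b, 0.000174 for Elavl2, 0.000888 for Bach2, 0.001 for Mbnl2, 0.00141 for Fstl1 and 0.00174 for Cdh6. It was 0.00991 for Med1, 0.0268 for Dleu2, 0.0322 for Chd2 and 0.0485 for Zhx2.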

How the results depend on the processing

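The 245 linked genes called in RNA-seq became 137 with DESeq2 and 390 with library totals, and the 28 whose difference changed became 51 with no filter on low counts. Peaks above the median score of all peaks, which are fewer, left 87 genes called in RNA-seq and 101 in the averaged iSLAM-seq difference. They left 29 at 0 h, 44 at 8 h and 6 in the change from 0 h, where peaks within 3 kb left 18. The number of genes tested is not given for these subsets, so their counts cannot be set against the background shares above. Without the 0.5 h time point, an alternative chosen after seeing the data, 164 were called at 0 h and 68 in the change. Leaving out 1 library gave 210 to 225 calls in RNA-seq, 302 to 402 in the averaged difference, 51 to 166 at 0 h, 92 to 241 at 8 h and 16 to 191 in the change. Among peaks above the median score, the median score was 211 in first and 188 in later introns. Of later-intron peaks 6.34% lay within 1 kb and 42% within 10 kb. With library totals, RNA-seq log2 values turned positive for Ensa (0.14), Med1 (0.20), Fbxo3 (0.30) and Zfhx3 (0.13), and Six4 averaged 0.17 in iSLAM-seq without the first empty-vector library at 0.5 h and -0.13 without the other. Apart from the scale and fewer peaks or libraries, the cause was not tested. The share of all genes called is not given here for the fits with no filter, without 0.5 h or without 1 library. Their counts thus have no background beside them. With the replicate block the counts were 242, 338, 112, 159 and 28; same-numbered libraries did not deviate together (correlations from -0.019 to 0.014 in RNA-seq and from -0.015 to 0.035 in iSLAM-seq), so the numbers were not taken as pairs. Of the values of single genes under other settings, 4701 kept direction and side of the threshold. A further 173 came out weaker, 73 stronger and 88 moved, and 5 reversed direction.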
